A study of Mus musculus with 24 samples.

Results

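Glycolysis splits glucose into pyruvate, and lactate dehydrogenase then turns pyruvate into lactate, which leaves the cell through monocarboxylate transporters. Glycogen is the stored form of glucose, built by glycogen synthase and branching enzyme and broken down by glycogen phosphorylase. When oxygen is low, prolyl hydroxylases no longer mark the hypoxia-inducible factors HIF1α (gene Hif1a) and HIF2α (gene Epas1) for destruction, and these factors raise many glycolytic genes together with genes for iron handling, collagen hydroxylation and vessel growth. Macrophages are known to draw on glycolysis when activated, and alternative activation by IL-4 works mainly through the transcription factor STAT6.

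The genes described here are 37 members of glycolysis, glycogen metabolism and the hypoxia response. They were chosen by name, with earlier results of these data known. Their shares of calls, set beside those of all genes, are therefore a description and not a test. Every probe set whose only listed gene symbol is a member was taken, which gave 74 probe sets for 36 of the 37 members, among 45037 probe sets and 18193 genes tested. Gpi1, glucose phosphate isomerase, was not measured by a probe set with a single listed symbol. Its expression was not analysed here, and it enters only the promoter search. Each gene was read from 1 probe set picked by its identifier and not by its values. 14 members had 1 probe set and 22 had several, up to 5.

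The question of the series was how IL-4, the PPARγ agonist rosiglitazone (RSG) and STAT6 act on gene expression in mouse macrophages. Bone marrow of C57Bl/6 mice, 3 wild-type (WT) and 3 STAT6 knockout (KO), was grown for 10 days in medium with M-CSF at 20 ng/ml, which all 8 groups share. Cells of each mouse were given no IL-4 (control) or IL-4 at 20 ng/ml, in combination with RSG at 1 µM or its DMSO:ethanol vehicle, and each of the 24 cultures went on 1 Affymetrix mouse array, 3 arrays a group. The labels describe the knockout only as STAT6 KO, and the paper states that Stat6-deficient mice were bought from a supplier. The age of the mice was not given in the sources used here. Groups are called WT control vehicle, WT control RSG, WT IL4 vehicle, WT IL4 RSG and the same for KO, and mice 1 to 3 are WT and mice 4 to 6 are KO.

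Values are log2 of the deposited ratio of a probe set to its own median over the arrays, so 0 is that median and a level cannot be compared between genes. A change was called when limma gave a Benjamini-Hochberg adjusted p under 0.05 over all probe sets and the change was at least 1.5-fold. Stat6, by the probe set used, ranged over 0.73 to 1.15 in WT and -2.03 to -1.56 in KO. The mean of 12 macrophage identity genes lay between -1.09 and 0.38 on all arrays; a ratio to the own median cannot show whether such genes are absent. For mouse 2 the WT control vehicle array was high in stromal fibroblast markers (mean of 16 genes 2.41), and for mouse 6 the KO control RSG array (4.15), against at most 1.17 on the others. The mean of 15 alternative activation genes ran from -1.22 to 1.06 on WT control vehicle arrays, with a median of -1.05. On WT IL4 vehicle arrays it was 3.10 to 3.32. Mast cell and lymphocyte means on WT control vehicle arrays likewise reached 0.52 and 0.49, against medians of -1.04 and -1.17. The part of this spread among WT controls in the results was not tested beyond leaving out single arrays.

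The core letters of the hypoxia response element, ACGTG on either strand, were looked for because many of the members share a regulator by textbook knowledge. RefSeq promoters of build GRCm38.p6 were searched (250 bases before to 50 after the start). Members were chosen by name, in part as hypoxia response genes, so their share of matches is a description and not a test. The core letters were in the promoters of 24 of 35 members with an entry (68.6%). Among genes with a promoter searched, the shares were 26.1% of 14453 on the arrays and 21.8% of all 27025. The search left out a whole chromosome, which holds none of the measured members. Among members that rose with IL-4 in WT, 10 of 12 held it (83.3%), and among the other measured members 14 of 22 (63.6%). Member promoters had a median GC content of 63.2%, against 58.3% for genes on the arrays, and the part of base composition in these shares was not tested. The variant core GCGTG was in 60% of members and 47.8% of genes on the arrays. TTCNNNNGAA, the spacing bound by STAT6, reads the same on both strands and was in 5 of 35 members (14.3%) and 6.94% of genes on the arrays. Gpi1, whose expression was not analysed, is among the 35 and holds this motif. A match is a description of letters and not a bound site.

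The windows below lie upstream of the start and are written along the gene's strand, with the match in capitals (CACGT is the core on the other strand). Members that rose, fell and were not called with IL-4 in WT are shown, since matches occurred in all 3 kinds. In Ldha and Bnip3 the core is part of CACGTG, which is also read by E-box factors. The last window is the STAT6-spaced motif of Hk3.
Slc2a1 (rose), chr4:119108697-119108725, + strand: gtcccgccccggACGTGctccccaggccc
Aldoa (rose), chr7:126799364-126799392, - strand: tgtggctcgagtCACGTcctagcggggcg
Pgk1 (rose), chrX:106186938-106186966, + strand: gcgtcgtgcaggACGTGacaaatggaagt
Pgam1 (rose), chr19:41911745-41911773, + strand: cgctccttgcttACGTGcgctccgtgact
Pkm (rose), chr9:59657140-59657168, + strand: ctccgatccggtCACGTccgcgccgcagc
Ldha (rose), chr7:46845745-46845773, + strand: ggcccagcctacACGTGggttcccgcacg
Ankrd37 (rose), chr8:46000075-46000100, - strand: cccagcagtACGTGcctagctcggct
Pygl (fell), chr12:70227798-70227826, - strand: cctttgcgcactACGTGacctggacgttc
Bnip3 (fell), chr7:138909597-138909625, - strand: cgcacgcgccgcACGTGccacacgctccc
Ddit4 (not called in WT), chr10:59951941-59951969, - strand: agaacgttgcgaACGTGcgcccggtgcct
Hk3 (rose), STAT6-spaced motif, chr13:55021475-55021504, - strand: ctccgcttctTTCCAAGGAActtggcactt

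**Figure D1:**
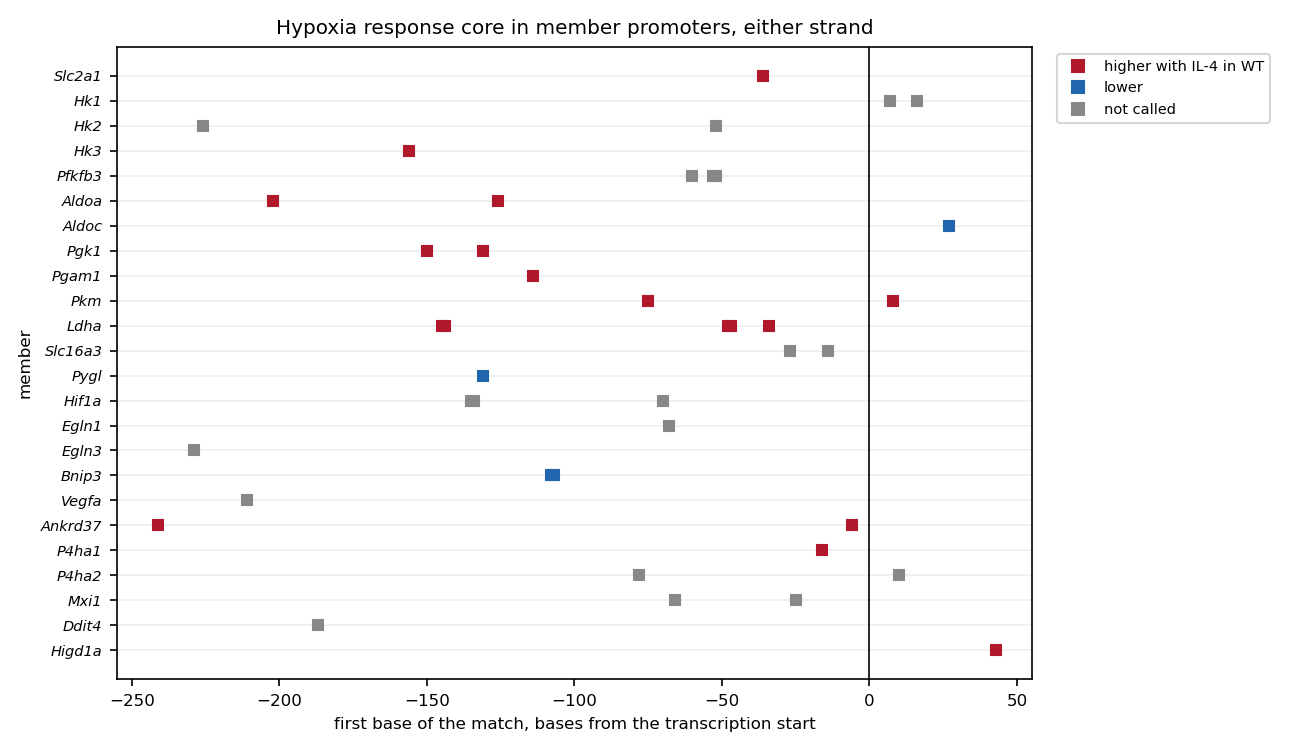
Position of each match to the hypoxia core in the promoters of 24 members, as the distance in bases of its first base from the transcription start (0), either strand. Squares are coloured by the call for IL-4 in WT; the 2 squares of Aldoa are 1 site seen from 2 annotated starts, and matches stand under members that rose, fell and were not called.

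IL-4 raised part of the glycolytic members in WT macrophages, at steps from glucose uptake to lactate formation. Other glycolytic members were not called or fell, and few of the other glycolytic genes listed further below rose. Of 36 members, 13 rose and 3 fell (44.4% called). Among all 18193 genes 14.3% were called, 7.84% higher and 6.41% lower. The members' median log2 change was 0.40 and that of all genes 0.11. The 13 that rose were Slc2a1, Hk3, Pfkp, Aldoa, Pgk1, Pgam1, Pkm, Ldha, Gbe1, Epas1, Ankrd37, P4ha1 and Higd1a. Those that fell were Aldoc, Pygl and Bnip3. Some of these calls depend on scaling. Quantile normalization ended those of Aldoa, Pgam1, Gbe1, P4ha1 and Higd1a, and centring each array on its median ended those of Aldoa and Higd1a. In bulk RNA of this kind, fewer cells of a type and less RNA per cell cannot be told apart. Proliferation markers were lower on the WT IL4 vehicle arrays (mean of 18 genes -1.71 to -1.49, against -0.18 to 0.23 on WT control vehicle arrays), as were neutrophil markers (-3.95 to -3.19 against -0.54 to 0.67). Interferon-stimulated genes (mean of 17 genes -1.33 to -0.89 against -0.10 to 0.21) and macrophage identity genes (mean of 12 genes -0.93 to -0.76 against 0.17 to 0.28) were lower on the same arrays without overlap. Of the 12 identity genes, 5 were called lower and 1 higher. The part of these 4 lists in the members' changes was not tested.

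At the entry of glucose, Slc2a1, the main glucose transporter of most cells, read -0.09, -0.16 and -0.29 on the WT control vehicle arrays and 1.53, 1.54 and 1.77 with IL-4. Every IL-4 array lay far above every control array, a 3.46-fold rise (log2 1.79 ± 0.20 SE, n = 3 arrays a group, limma adjusted p = 4.34e-06). Its other probe sets gave 1.55 and 1.79, both called. Hk3, a hexokinase typical of blood cells, went from 0.07, -0.16 and 0.02 to 1.15, 1.20 and 1.22, with little spread among the IL-4 arrays. That was a 2.31-fold rise (log2 1.21 ± 0.11, adjusted p = 2.6e-07). The other hexokinases did not pass: Hk1, the housekeeping form, changed by -0.08 ± 0.30, and Hk2, the inducible form, by 0.46 ± 0.12, a 1.38-fold difference with an adjusted p of 0.0088 that stayed under the fold threshold.

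At the committed step, the isoforms of phosphofructokinase differed. Pfkp, the platelet form, stood at 0.07, -0.08 and -0.13 without IL-4 and 1.54, 1.65 and 1.74 with it. The rise was 3.22-fold (log2 1.69 ± 0.11, adjusted p = 8.21e-09), while Pfkl, the liver form, changed by -0.14 ± 0.18 and was not called. A second Pfkp probe set rose by 1.84, and the third, at 0.77, was not called. Pfkfb3 and Pfkfb4, which make the fructose bisphosphate that activates phosphofructokinase, changed by -0.42 and -0.14 and were not called.

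The aldolases moved in opposite directions. Aldoa, the common form, was 0.10, -0.06 and -0.03 on control and 0.65, 0.60 and 0.59 on IL-4 arrays (log2 0.61 ± 0.09, adjusted p = 8.73e-05). Its call rests on the fold threshold and was lost at 0.58 without mouse 2's WT control vehicle array; 3 of its 4 other probe sets were called higher. Aldoc, the form best known from brain, read 1.34, 0.15 and 0.30 on control arrays and -3.26, -2.19 and -5.22 with IL-4. The IL-4 arrays were all far below control but spread over 3 log2 units, and the fall was 17.8-fold (log2 -4.15 ± 0.54, adjusted p = 2.28e-05; second probe set -3.39, called).

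Lower in the pathway, 3 of 4 members rose. Pgk1, phosphoglycerate kinase, was 0.19, -0.09 and -0.18 without and 0.68, 0.65 and 0.72 with IL-4 (log2 0.71 ± 0.14, adjusted p = 0.00179). Pgam1, phosphoglycerate mutase, rose by 0.63 ± 0.12 (adjusted p = 0.00127) and was under the fold threshold, at 0.53, without the vehicle-treated WT control array of mouse 3. Pkm, pyruvate kinase of most tissues, went from -0.17, -0.25 and -0.14 to 0.92, 0.66 and 0.91, a 2.02-fold rise (log2 1.02 ± 0.15, adjusted p = 7.76e-05) with no overlap. Tpi1, triose phosphate isomerase, changed by 0.58 ± 0.13 (adjusted p = 0.00296), just short of 1.5-fold, and Eno2, the neuronal enolase, by 0.32 ± 0.33.

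At the end of the pathway, Ldha, the lactate dehydrogenase subunit that favours lactate, read -0.29, -0.42 and -0.31 on control and 1.01, 1.06 and 1.11 on IL-4 arrays. The groups were tight and did not overlap, and the rise was 2.63-fold (log2 1.40 ± 0.15, adjusted p = 1.87e-06). The lactate exporter Slc16a3 was not called (-0.41 ± 0.39), with 1 IL-4 array at -1.58 and the others at -0.10 and 0.30. Pdk1, a kinase that switches pyruvate dehydrogenase off, was not called by the probe set used (-0.27 ± 0.20). Even so, 2 of its 3 other probe sets were called lower, at -2.30 and -0.60.

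Glycogen genes moved apart. Pygl, the liver-type glycogen phosphorylase that releases glucose from glycogen, was 0.51, 0.33 and 0.16 on control and -1.29, -1.50 and -1.61 on IL-4 arrays. This was a 3.48-fold fall without overlap (log2 -1.80 ± 0.16, adjusted p = 3.77e-07). Gbe1, the branching enzyme, rose by 0.64 ± 0.21 (adjusted p = 0.0427), a call lost when the vehicle-treated WT control array of mouse 2 (0.61) or 3 (0.52) or the WT IL4 vehicle array of mouse 1 (0.57) or 3 (0.59) was left out. Gys1, glycogen synthase, ranged from -1.26 to 0.08 on control and from -0.32 to 0.83 on IL-4 arrays and was not called (0.74 ± 0.52).

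**Figure D2:**
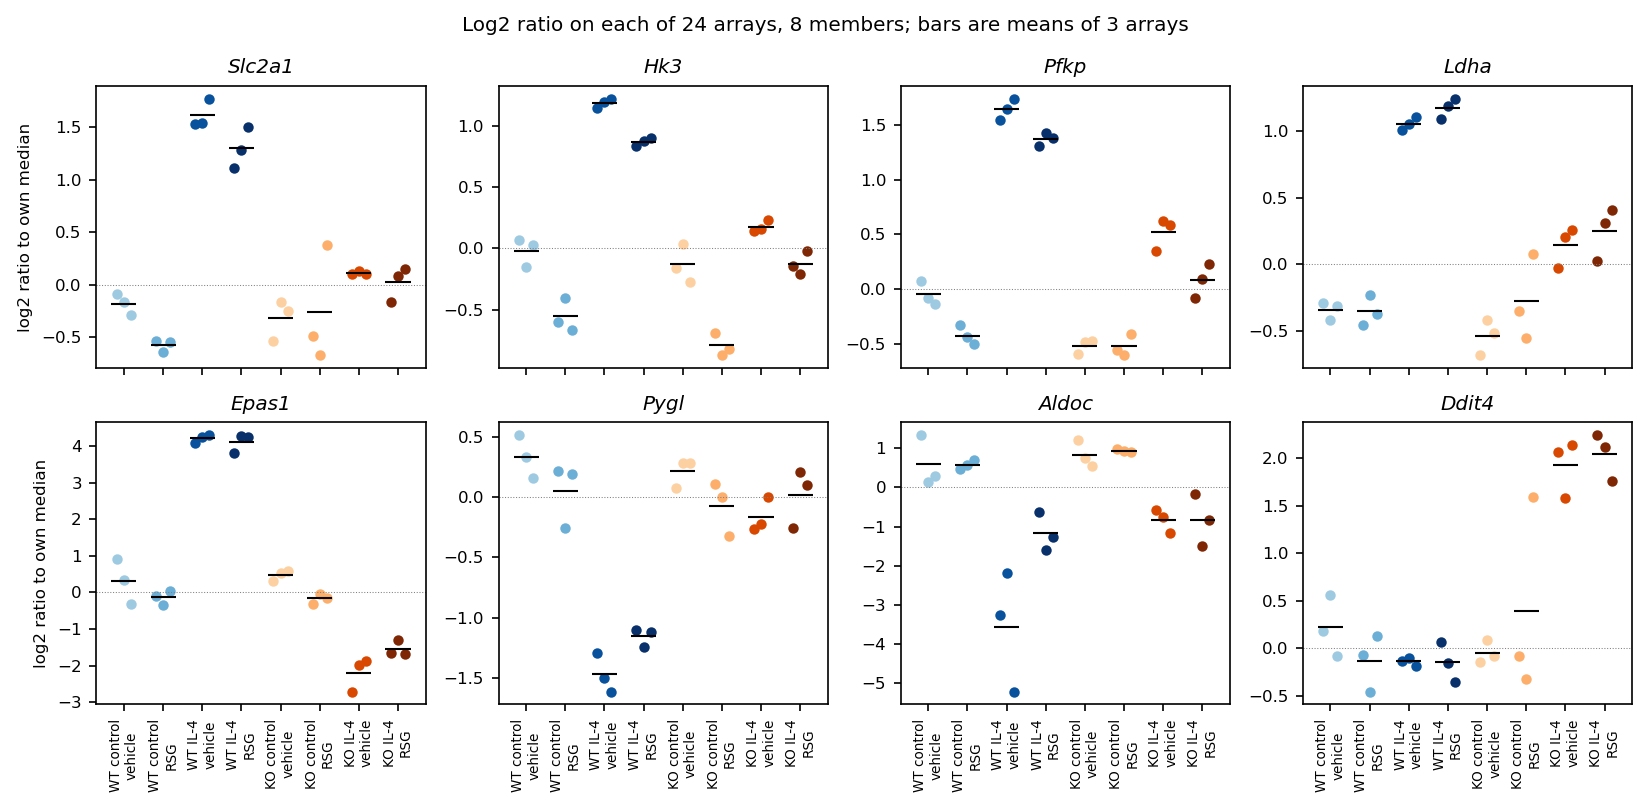
Log2 ratio to the own median (vertical axis, scaled for each panel) of 8 members on each of 24 arrays; points are arrays, in the order of the mice, and bars are means of 3 arrays. Slc2a1, Hk3, Pfkp and Ldha were highest on the WT IL-4 arrays, Epas1 was high in WT and low in KO with IL-4, Pygl was low only on WT IL-4 arrays, Aldoc was lowest on WT IL4 vehicle arrays, and Ddit4 was high on the KO IL-4 arrays and on 1 KO control RSG array.

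The oxygen-sensing genes were led by Epas1, which encodes HIF2α. Its values were 0.90, 0.35 and -0.32 on WT control and 4.10, 4.26 and 4.30 on WT IL-4 arrays. The rise was 15-fold (log2 3.91 ± 0.26, adjusted p = 7.41e-09), and a second probe set rose by 5.02. Hif1a, encoding HIF1α, read 0.18, 0.00 and 0.10 without and -0.46, -0.10 and 0.22 with IL-4; these groups overlapped, the change was -0.21 ± 0.23, and none of its 4 probe sets was called. HIF proteins are set largely by their stability, which arrays do not measure. The prolyl hydroxylases Egln1 (0.35 ± 0.16) and Egln3 (0.46 ± 0.37) were not called, but another Egln3 probe set was, at 1.72.

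Of the 11 members listed under the hypoxia response, 3 rose and 1 fell with IL-4 in WT. This list leaves out the glycolytic members described above, although the same factors raise many glycolytic genes. Ankrd37, an ankyrin repeat protein of unclear role, went from 0.43, 0.05 and -0.23 to 1.67, 1.78 and 2.01 (log2 1.74 ± 0.23, adjusted p = 2.66e-05), without overlap. P4ha1, a collagen prolyl hydroxylase subunit, rose by 1.02 ± 0.28 (adjusted p = 0.0158). Leaving out the WT IL4 vehicle array of mouse 1 (0.98) or 3 (0.86) or the vehicle-treated WT control array of mouse 2 (0.99) ended that call. Higd1a, a mitochondrial protein induced by hypoxia, rose by 0.60 ± 0.17 (adjusted p = 0.0203; its other probe sets gave 0.70, called, and 0.25, not called), a call lost without the vehicle-treated WT control array of mouse 2 or 3 (0.54 for both) or the WT IL4 vehicle array of mouse 3 (0.56). Bnip3, which marks mitochondria for removal, fell from 0.33, 0.20 and 0.05 to -0.77, -0.62 and -0.25 (log2 -0.74 ± 0.16, adjusted p = 0.00336). The methods' t-test and a fit of the compared arrays alone did not call Bnip3.

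The other 7 were not called. These were the vessel growth factor Vegfa (-0.50 ± 0.23), the mTOR inhibitor Ddit4 (-0.36 ± 0.35), the histone demethylase Kdm3a (-0.30 ± 0.11), the stress gene Ndrg1 (-0.75 ± 0.30), the Max partner Mxi1 (0.85 ± 0.44), P4ha2 (-0.01 ± 0.41) and the peptide hormone Adm (-0.03 ± 1.25). Adm had the widest spread of the members, from -2.04 to 0.99 on WT control arrays alone, so that a change of several fold could not be seen. A second Mxi1 probe set rose by 0.94, and 2 of the 4 other Ndrg1 probe sets fell, by 0.74 and 0.72 on the log2 scale. Over the 9 called members with several probe sets, 13 of 16 other probe sets had the same call and 0 had the opposite sign.

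Without STAT6, IL-4 left most glycolytic members uncalled. In KO, 3 members rose (Pfkp, Ldha and Ddit4) and 5 fell (Aldoc, Epas1, Egln1, Ndrg1 and Kdm3a), 22.2% of 36. Of all genes 13.5% were called, 5.27% higher and 8.26% lower. The members' median change was 0.06 and that of all genes -0.16. This split depends on scaling: with each array centred on its median, 7 rose and 2 fell, and with quantile normalization 5 rose and 2 fell. Centring moved the median change of all genes to -0.02 and the share of higher calls among all called genes from 39% to 55.6% (49.2% after quantile normalization).

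Markers of other cells moved strongly on the same arrays. The mean of 10 mast cell and basophil genes was 4.30 to 4.87 on KO IL4 vehicle arrays against -1.25 to -0.65 on KO control vehicle arrays, with 9 of 10 genes called higher. For 11 neutrophil and precursor genes these ranges were 3.24 to 3.62 and -0.34 to 0.33 (11 called higher), and for 9 lymphocyte genes 4.07 to 4.54 and -1.63 to -1.38 (9 called higher). Interferon-stimulated genes (17 of 17 higher) and proliferation genes (11 of 18 higher) also rose, with IL-4 means of 2.86 to 3.30 and 0.76 to 1.24. On WT IL4 vehicle arrays the means were -0.59 to -0.14 for mast cell genes, against -1.32 to 0.52 on WT control vehicle arrays. For lymphocyte genes they were -0.14 to 0.25 against -1.78 to 0.49. Of the lymphocyte genes, Gzmb was called higher (4.58 ± 1.27) and Cd2 lower (-1.75 ± 0.59) with IL-4 in WT. The part of these lists in the results with KO IL-4 arrays was not tested. A change within macrophages and a change in the mix of cells cannot be told apart there.

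Pfkp had the larger of the 2 rises among glycolytic genes in KO, from -0.59, -0.49 and -0.47 to 0.35, 0.62 and 0.58. All KO IL-4 arrays lay above all control arrays, a 2.05-fold rise (log2 1.03 ± 0.11, limma adjusted p = 5.34e-06). Its other probe sets gave 1.23, called, and 1.13, not called. Ldha went from -0.68, -0.42 and -0.51 to -0.02, 0.20 and 0.26 (log2 0.68 ± 0.15, adjusted p = 0.00308). Slc2a1, by contrast, read -0.54, -0.17 and -0.25 on KO control and 0.10, 0.13 and 0.10 on KO IL-4 arrays, which did not overlap but differed by 0.43 ± 0.20 and were not called. Hk3 (0.31 ± 0.11), Pkm (0.41 ± 0.15) and Pgk1 (0.51 ± 0.14, adjusted p = 0.0232, 1.42-fold) also stayed short of a call, as did Pgam1 (-0.08 ± 0.12), Aldoa (0.05 ± 0.09) and Pygl (-0.38 ± 0.16).

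Ddit4, known as a stress-induced brake on mTOR, rose in KO. Its values were -0.14, 0.09 and -0.08 on control and 2.06, 1.58 and 2.14 on IL-4 arrays, a 3.93-fold rise (log2 1.97 ± 0.35, adjusted p = 0.000642). Epas1 fell from 0.31, 0.53 and 0.58 to -2.71, -1.97 and -1.88 by the probe set used (log2 -2.66 ± 0.26, adjusted p = 1.61e-06). The second Epas1 probe set changed by -0.05 in KO and was not called, so the fall is not shared between them. Ndrg1 fell by 1.35 on the log2 scale (adjusted p = 0.0044), and 3 of its 4 other probe sets fell too. Its call was lost by the methods' t-test and with the compared arrays alone. Over the 5 called members with several probe sets, 5 of 9 other probe sets had the same call in KO and 0 had the opposite sign. Some members not called by the probe set used had another that was: Egln3 at 2.56 (against 1.07), Mxi1 at -0.81 (against -0.20) and Higd1a at -0.72 (against 0.36).

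The remaining KO calls were near a threshold. Kdm3a (-0.63 ± 0.11, adjusted p = 0.000691) was under the fold threshold without the KO IL4 vehicle array of mouse 4 (-0.56) or the KO control vehicle array of mouse 6 (-0.57) and when arrays were centred (-0.49). Egln1 (-0.60 ± 0.16, adjusted p = 0.013) lost its call without the KO control vehicle (-0.58) or KO IL4 vehicle (-0.44) array of mouse 4 and when centred (-0.46). Its second probe set changed by -0.06 and was not called, and the mean of both probe sets was -0.33, not called. Aldoc read 1.22, 0.75 and 0.55 on control and -0.57, -0.76 and -1.16 on IL-4 arrays (log2 -1.67 ± 0.54, adjusted p = 0.0441). Its groups did not overlap, but leaving out any of the 6 compared arrays ended the call, with changes from -1.81 to -1.48.

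**Figure D3:**
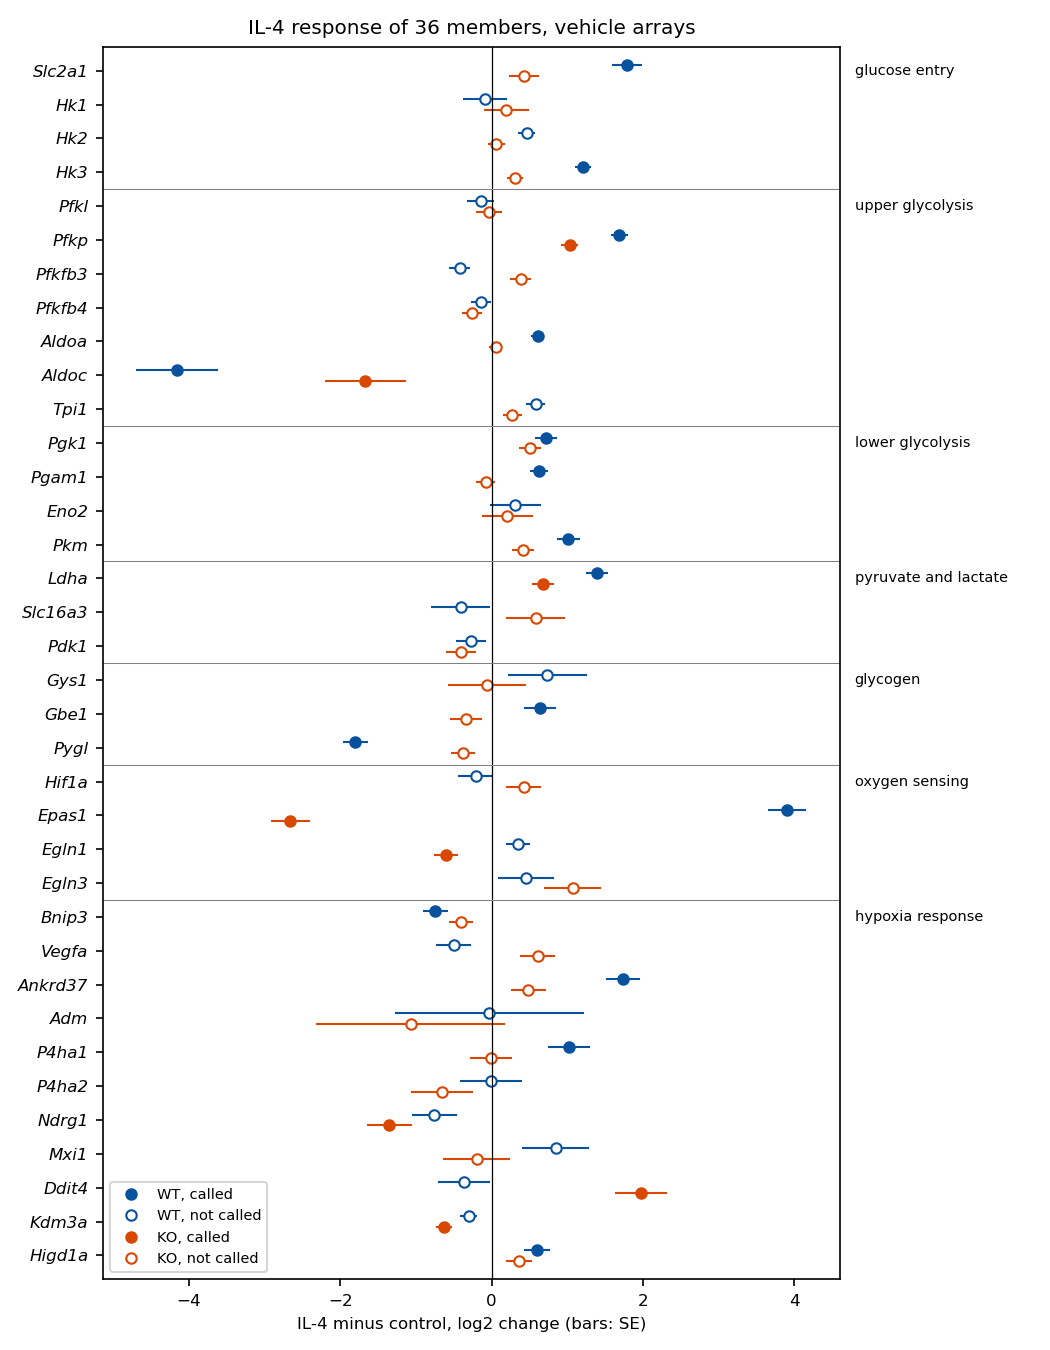
Log2 change with IL-4 (horizontal axis, bars are SE) of 36 members on vehicle arrays, WT in blue and KO in orange, grouped by role; filled points were called. Slc2a1, Hk3, Pkm and Pgam1 are filled in WT only, Pfkp and Ldha in both genotypes, and Epas1 lies at 3.91 in WT and -2.66 in KO.

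The difference between the genotypes was tested directly, as the IL-4 change in WT minus that in KO. It was called for 14 members (38.9% of 36), with 9 changes higher and 5 lower in WT, against 16.8% of all genes, 11.3% higher and 5.47% lower. Members had a median difference of 0.36, and all genes one of 0.28, so both were shifted towards WT. With arrays centred, the median of all genes was 0.11 and the member calls were 6 higher and 5 lower; after quantile normalization they were 3 and 4. Among all called genes, the share higher in WT went from 67.4% to 52.9% and 48.8%.

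Slc2a1 had the largest difference among glycolytic enzymes and transporters that were higher in WT (1.37 ± 0.28, adjusted p = 0.00263), and its other probe sets gave 1.23 and 1.29. Hk3 differed by 0.90 ± 0.15 (adjusted p = 0.000404), Ankrd37 by 1.25 ± 0.32 (adjusted p = 0.0123) and Egln1 by 0.95 ± 0.22 (adjusted p = 0.00629), though the second Egln1 probe set gave 0.30 and was not called. Epas1 differed by 6.57 ± 0.36 (adjusted p = 2.55e-09), or 5.07 by its second probe set. Pygl went the other way, by -1.42 ± 0.23 (adjusted p = 0.00032), and so did Ddit4 (-2.34 ± 0.49, adjusted p = 0.0029). These directions and calls held after centring. Quantile normalization ended the calls of Ankrd37 (0.94, adjusted p = 0.084) and Egln1 (0.73, adjusted p = 0.055) and kept the others.

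Smaller differences were less firm. Pfkp differed by 0.65 ± 0.16 (adjusted p = 0.00759), Pgam1 by 0.71 ± 0.17 and Ldha by 0.71 ± 0.21 (adjusted p = 0.0238), and all 3 lost their calls with centred arrays, at 0.49, 0.54 and 0.54. Neither of the other Pfkp probe sets was called (0.61 and -0.36), and the mean of the 3 gave 0.30, not called. Pfkp (0.57) and Ldha (0.63) also lost them without the KO IL4 vehicle array of mouse 4. For Ldha the same held without the vehicle-treated WT control array of mouse 2 (0.68), the WT IL4 vehicle array of mouse 3 (0.69) or the KO control vehicle array of mouse 5 (0.65) or 6 (0.70). Pkm (0.60 ± 0.21, adjusted p = 0.0597) and Aldoa (0.56 ± 0.13, adjusted p = 0.00528, 1.47-fold) were not called, although all 4 other Aldoa probe sets were, at 0.65 to 1.01. Pgk1 differed by 0.21 ± 0.20, which does not show that it responded alike in both.

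Gbe1 (0.97 ± 0.29, adjusted p = 0.0307), Vegfa (-1.11 ± 0.32, adjusted p = 0.0247) and Aldoc (-2.49 ± 0.76, adjusted p = 0.0329) were called but rested on single arrays, and that of Vegfa also on the probe set. The Gbe1 call ended without the control vehicle array of mouse 2, 3, 5 or 6 or the IL4 vehicle array of mouse 1, 3 or 4 (0.81 to 0.96). The Vegfa call ended without the control vehicle array of mouse 1, 2 or 5 or the IL4 vehicle array of mouse 1, 2 or 6 (-1.09 to -0.89). The second Vegfa probe set gave -0.62, not called, and the mean of both -0.86, also not called. That of Aldoc ended without the control vehicle array of mouse 1, 5 or 6 or the IL4 vehicle array of mouse 3, 4 or 5 (-2.45 to -1.66). Pfkfb3 differed by -0.81 ± 0.20 (adjusted p = 0.00926), but its second probe set had the opposite sign, at 0.21, and was not called. Over the 8 called members with several probe sets, 5 of 10 other probe sets had the same call and 2 had the opposite sign. Other probe sets of Mxi1 (1.75, against 1.05 by the one used) and Higd1a (1.43, against 0.25) were called.

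The levels of KO and WT were then compared without and with IL-4; the genotype difference above is the test between the 2. On control vehicle arrays limma called 0 of 36 members, against 0.0989% of all genes; 5 members had an unadjusted p under 0.05, and the methods' t-test also called 0. The farthest from 0 were Egln3 at -1.10 ± 0.37 and Pdk1 at 0.65 ± 0.20, neither with overlapping groups. Another Pdk1 probe set was called, at 0.77 ± 0.14 (adjusted p = 0.044), and the remaining ones were at -0.45 and 0.18. With IL-4, 3 members were higher and 14 lower in KO (47.2% called), against 26.1% of all genes, 7.12% higher and 19% lower. All genes had a median of -0.29 in this comparison and members -0.48. Centred arrays gave 8 higher and 11 lower members and quantile normalization 4 and 8, while the share of higher calls among all called genes went from 27.3% to 44.3% and 42.5%.

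In KO IL-4 arrays, Epas1 was 84.6-fold lower than in WT IL-4 arrays (log2 -6.40 ± 0.26), and its second probe set gave -4.79. Slc2a1 (-1.50 ± 0.20), Ankrd37 (-1.68 ± 0.23), Pfkp (-1.12 ± 0.11), Hk3 (-1.01 ± 0.11), Ldha (-0.91 ± 0.15), Egln1 (-1.05 ± 0.16) and P4ha1 (-1.37 ± 0.28) were lower in KO, with every KO array below every WT array, and kept their calls under all alternatives. Pygl (1.30 ± 0.16) and Ddit4 (2.07 ± 0.35) were higher in KO and kept theirs too. Pgam1 (-0.85), Gbe1 (-0.86), Pkm (-0.71), Aldoa (-0.64), Ndrg1 (-1.03) and Mxi1 (-1.33) were lower and lost the call after quantile normalization. Aldoa, Pkm and Mxi1 also lost it with centred arrays, and Mxi1 without any 1 of the compared arrays (-1.36 to -1.26) other than the KO IL4 vehicle array of mouse 6. Without the KO IL4 vehicle array of mouse 4, Aldoa was at -0.58, and Ndrg1 lost its call without the WT IL4 vehicle array of mouse 1 (-0.95) or the KO IL4 vehicle array of mouse 5 (-0.87). Aldoc was 2.73 ± 0.54 higher in KO (limma adjusted p = 0.000678), a call lost by the methods' t-test and with the compared arrays alone. Over the 10 called members with several probe sets, 14 of 18 other probe sets had the same call and 0 the opposite sign; those that did not were 1 of Pfkp (-0.39) and 3 of Ndrg1 (-1.16, -0.39 and -0.19). Among members not called, other probe sets were called for Pdk1 (0.87 and 2.61), Pgk1 (-0.88) and Higd1a (-1.17 and -1.56).

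**Figure D4:**
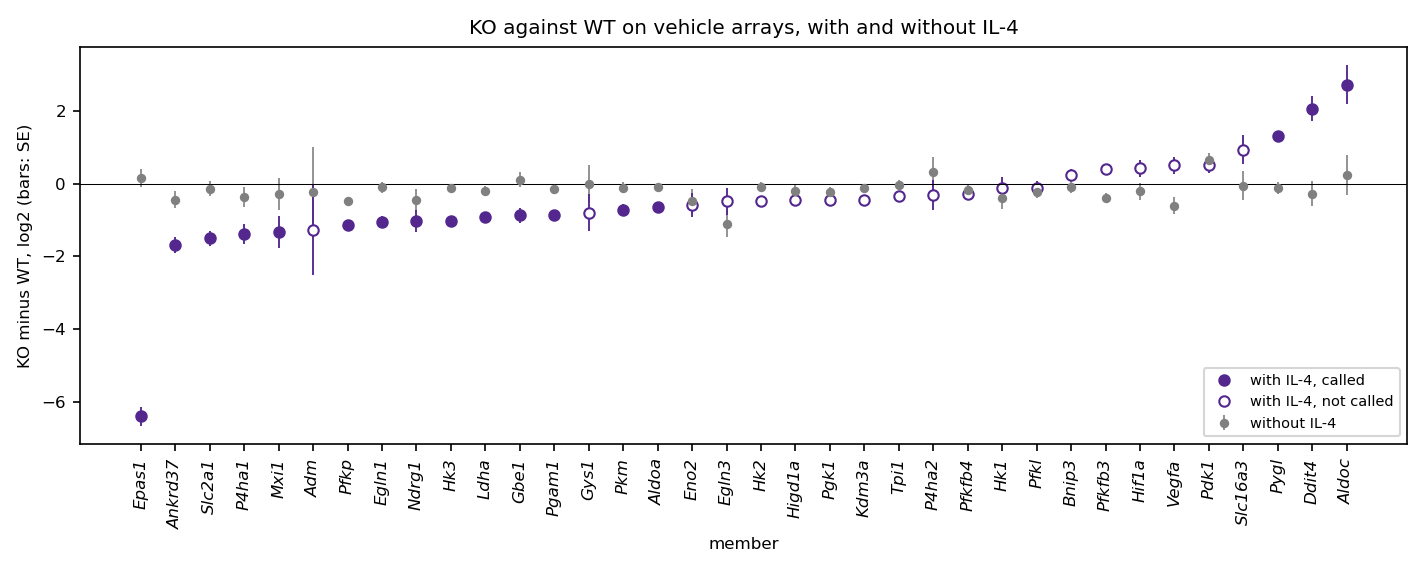
KO minus WT on the log2 scale (vertical axis, bars are SE) for 36 members on vehicle arrays, ordered by the difference with IL-4; grey points are arrays without IL-4 and filled purple points were called. Grey points run from Egln3 at -1.10 to Pdk1 at 0.65 with none called, and 17 of the purple points are filled, from Epas1 at -6.40 to Aldoc at 2.73.

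The cultures with RSG measured the IL-4 response again, on other arrays from the same mice. In WT under RSG, 14 members rose and 2 fell (44.4%), against 14.5% of all genes, 9.01% higher and 5.47% lower. Of the 16 called in each arm, 13 were shared with the same direction (81.2% of each list), and among all genes 69.1% of the vehicle list and 68% of the RSG list were shared. Aldoa, Gbe1 and Bnip3 were called in the vehicle arm alone, and Tpi1, Egln3 and Mxi1 in the RSG arm alone; a difference between arms was tested as the RSG by IL-4 term below. Slc2a1 rose by 1.87 ± 0.20, Pfkp by 1.79 ± 0.11, Ldha by 1.53 ± 0.15, Hk3 by 1.42 ± 0.11 and Pkm by 1.07 ± 0.15, and Pygl fell by 1.20. Egln3, the prolyl hydroxylase most induced by HIF, read -0.31, -0.44 and 0.60 on WT control RSG and 0.92, 1.77 and 1.82 on WT IL4 RSG arrays (log2 1.55 ± 0.37, adjusted p = 0.00614). That call was lost by the methods' t-test and with the compared arrays alone.

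Over the 11 called members with several probe sets, 12 of 16 others had the same call and 0 the opposite sign; those without it were 1 of Pfkp (0.39), 1 of Tpi1 (0.52) and both of Higd1a (0.34 and 0.40, against 0.68 by the one used). Calls of this arm that rested on single arrays were those of Aldoc (-1.74 ± 0.54), P4ha1 (0.96 ± 0.28) and Mxi1 (1.49 ± 0.44). Aldoc lost its call without the control RSG array of mouse 1, 2 or 3 or the IL4 RSG array of mouse 2 or 3 (-1.79 to -1.52). For P4ha1 this held without the control RSG array of mouse 2 (0.79) or 3 (0.98) or the IL4 RSG array of mouse 3 (0.72), and for Mxi1 without the control RSG array of mouse 2 (1.04) or the IL4 RSG array of mouse 3 (1.35).

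In KO under RSG, 3 members rose and 2 fell (13.9%), against 7.99% of all genes, 4.17% higher and 3.81% lower. Of the 5, 4 were also called in the vehicle arm (80% of this list and 50% of the other). These were Pfkp (0.60 ± 0.11), Ddit4 (1.65 ± 0.35), Epas1 (-1.39 ± 0.26; second probe set 0.67, not called) and Aldoc (-1.77 ± 0.54, adjusted p = 0.0498), and Hk3 joined them (0.67 ± 0.11). Leaving out any of the compared arrays but the KO IL4 RSG array of mouse 4 ended the Aldoc call (-1.79 to -1.44), and the mouse as a block did so at an adjusted p of 0.051. Neither of the other Pfkp probe sets was called (0.03 and 0.38), and it was under the fold threshold with their mean (0.34) and without the RSG-treated KO control array of mouse 5 (0.56) or the KO IL4 RSG array of mouse 6 (0.53). The methods' t-test and a fit of the compared arrays alone each ended the calls of Pfkp, Ddit4, Aldoc and Hk3. Ddit4 read -0.08, -0.32 and 1.60 on the KO control RSG arrays, the last being the array of mouse 6 that was high in stromal markers. The count of members called was 8 without that array, and also 8 without the KO IL4 RSG array of mouse 4.

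The genotype difference under RSG was called for 10 members (27.8%), 8 higher and 2 lower in WT, against 13% of all genes, 8.5% higher and 4.49% lower. Of these, 8 were shared with the vehicle arm (80% of this list, 57.1% of the other), namely Slc2a1 (1.59 ± 0.28), Hk3 (0.76 ± 0.15), Pfkp (1.19 ± 0.16), Pgam1 (0.64 ± 0.17), Ldha (1.01 ± 0.21), Epas1 (5.63 ± 0.36), Pygl (-1.29 ± 0.23) and Ddit4 (-1.66 ± 0.49). In this arm Pfkp and Ldha kept the call under every alternative, while Hk3, Pgam1 and Ddit4 did not. Hk3 lost it by its second probe set (0.77, adjusted p = 0.051) and after quantile normalization (0.58), and of the other Pfkp probe sets 1 was called (1.75) and 1 was not (0.01). Pgam1 lost it without the control RSG array of mouse 2 or 6 or the IL4 RSG array of mouse 3 or 4 (0.54 to 0.61). Ddit4 lost it without the control RSG array of mouse 1, 3, 4 or 5 or the IL4 RSG array of mouse 2, 3, 4 or 5 (-1.65 to -1.30), and with the mouse as a block (adjusted p = 0.053). Tpi1 (0.76 ± 0.18) and Mxi1 (2.68 ± 0.62) were called here and not in the vehicle arm. The second Mxi1 probe set gave 1.44, also called, and those of Tpi1 0.65, called, and 0.56, not called. Other probe sets of Egln1 (0.88), Egln3 (1.62), P4ha1 (1.57) and Aldoa (0.71 and 0.64) were called where the one used was not.

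**Figure D5:**
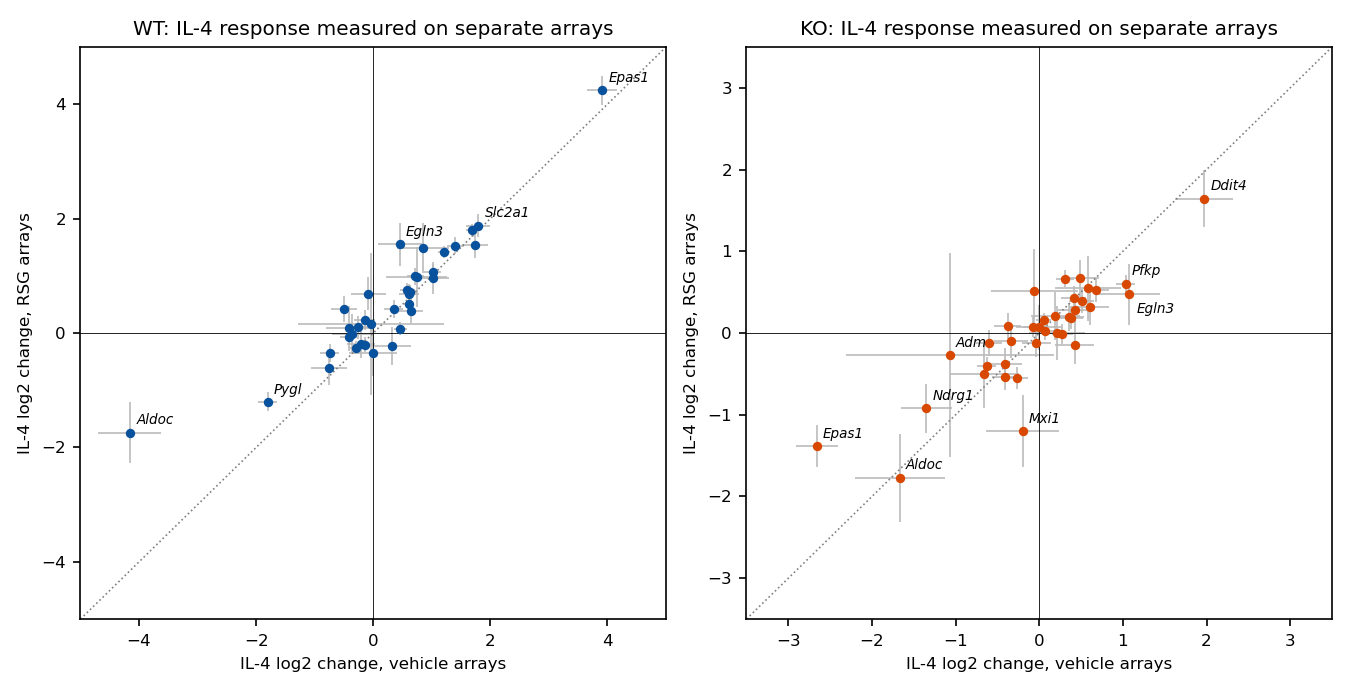
Log2 change with IL-4 on RSG arrays (vertical axis) against vehicle arrays (horizontal axis) for 36 members, WT left and KO right; bars are SE and the dotted line marks equal changes. In WT most members lie near the line with Aldoc off it (-4.15 and -1.74), and in KO Ddit4 is high and Epas1 low in both arms.

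RSG itself moved few members. On WT control arrays limma called 0 of 36 (0.148% of all genes), with 8 at an unadjusted p under 0.05 and 0 by the methods' t-test; the limma count was 1 without the vehicle-treated WT control array of mouse 3. On KO IL-4 arrays it also called 0 (0.731% of all genes), with 6 at an unadjusted p under 0.05 and 0 by the methods' t-test. The RSG by IL-4 term in WT was called for 0 members (0.0385% of all genes), with 4 at an unadjusted p under 0.05. On KO control arrays 1 member was called (0.209% of all genes): Hk3 fell from -0.16, 0.04 and -0.28 to -0.69, -0.87 and -0.82 (log2 -0.66 ± 0.11, adjusted p = 0.0134). The Hk3 arrays did not overlap in WT without IL-4 either (-0.53 ± 0.11, adjusted p = 0.064), where it was not called. Its KO call was lost without the KO control vehicle array of mouse 5 (-0.58) or the RSG-treated KO control array of mouse 5 (-0.62) or 6 (-0.65), and with the mouse as a block (adjusted p = 0.061). The second Hk3 probe set gave -0.65 and was not called, while the second of Egln3 was called higher on these arrays, at 1.83 (1.30 by the one used).

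On WT IL-4 arrays RSG changed 1 member, against 0.918% of all genes. Aldoc read -3.26, -2.19 and -5.22 with vehicle and -0.63, -1.61 and -1.26 with RSG. The groups did not overlap and differed by 2.39 ± 0.54 (adjusted p = 0.0478), and its second probe set was called higher too. Leaving out the WT IL4 vehicle array of mouse 1 (2.54) or 3 (1.56), or the WT IL4 RSG array of mouse 1 (2.12), 2 (2.62) or 3 (2.44), ended the call, as did the mouse as a block (adjusted p = 0.062).

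Neighbouring pathway genes, listed apart from the members, were counted in the same fit for IL-4 on vehicle arrays, where the shares of all genes called were 14.3% in WT and 13.5% in KO, as above. Of 15 other glycolytic genes measured, 1 rose and 3 fell in WT (26.7%), and 2 rose and 3 fell in KO (33.3%). Slc16a1, a lactate and pyruvate transporter, rose in WT by 1.65 ± 0.20, whereas its relative Slc16a7 (-1.21 ± 0.13) and Pfkm, the muscle phosphofructokinase (-1.36 ± 0.18), fell. Slc2a6, a lysosomal glucose transporter, fell in WT (-1.20 ± 0.27) and rose in KO (1.10 ± 0.27), with a tested difference of -2.31 ± 0.39.

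Of 18 other glycogen genes, 2 rose and 4 fell in WT (33.3%), and 0 rose and 4 fell in KO (22.2%). Ppp1r3c, which brings protein phosphatase 1 to glycogen and favours its synthesis, had the largest rise of this list in WT (3.56 ± 0.97, adjusted p = 0.0153) and differed by 5.70 ± 1.37 between genotypes. Ugp2, which makes the UDP-glucose used by glycogen synthase, rose by 1.03 ± 0.11. Phka1, a subunit of the kinase that activates glycogen phosphorylase, fell by 2.36 on the log2 scale, and Ppp1r3d, another glycogen-targeting phosphatase subunit, by 1.26.

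Of 23 other hypoxia response genes, 5 rose and 2 fell in WT (30.4%), and 2 rose and 3 fell in KO (21.7%). With lists this short, 1 gene more or less moves a share by several percent. Tfrc, the transferrin receptor, rose by 4.11 ± 0.19 in WT with a genotype difference of 4.28 ± 0.26, and Bhlhe40, a transcriptional repressor, by 3.19 ± 0.31 with a difference of 1.94 ± 0.44. The secreted glycoprotein Stc2 (2.20 ± 0.52) and the carbonic anhydrase Car12 (1.68 ± 0.55) rose as well. Several of these genes are also known to answer to signals other than oxygen.

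The routes on either side of glycolysis were counted too. Of 6 pentose phosphate genes, 3 rose in WT (50%) and 1 in KO (16.7%). Transketolase Tkt (0.93 ± 0.20 in WT) and the epimerase Rpe (0.74 ± 0.12) rose with a called genotype difference. The isomerase Rpia rose in both genotypes (0.82 ± 0.12 in WT and 0.77 ± 0.12 in KO), with a difference of 0.06 that was not called. Taldo1, transaldolase, was called for that difference at 0.59 ± 0.15. Of 11 pyruvate oxidation genes, 2 rose and 0 fell in WT (18.2%, near the share of all genes), and 1 rose and 4 fell in KO (45.5%). Pdp1, the phosphatase that switches pyruvate dehydrogenase on, rose in WT (1.00 ± 0.17) and fell in KO (-0.98 ± 0.17), a difference of 1.98 ± 0.24. Dld, a subunit of the same complex, rose by 0.61 ± 0.11 in WT, Pdhb differed between genotypes by 0.76 ± 0.16, and the opposing kinase Pdk3 rose in KO (1.08 ± 0.22).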

How the data were processed

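The authors hybridised total RNA of 24 cultures to Affymetrix Mouse Genome arrays and deposited linear ratios: per the study's methods, scans were processed with GC-RMA and GeneSpring, each array was scaled to its 50th percentile and each probe set divided by its median over the arrays. GCOS and GCRMA, without versions, are given in the submitters' processing notes. A further division by vehicle controls, named in the methods, is not carried by the values. Such a ratio holds no absolute level, so signal over background is unknown; precision is limited by the number of arrays and by each probe set's spread, and noise near background cannot be told apart from other spread. The median was 1 within 0.001 for 86.35% of probe sets.

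Ratios were taken to log2 and 45037 probe sets, without 64 Affymetrix controls, were fitted in R 4.3.3 by limma 3.58.1 (lmFit and eBayes without a variance trend, since a ratio has no level for variance to follow) over the 24 arrays, which left 16 residual degrees of freedom and gave 1.35 prior ones. Tests were two-sided; thresholds were those of the study's methods. The 13 comparisons are those described above. Genes were named from the platform annotation (34945 probe sets with 1 symbol, 932 with several, 9160 with none listed); all 36 members matched RefSeq GRCm38.p6 by gene ID. A gene was read from the probe set ending in _at or _a_at before _s_at before _x_at, then the lowest number. All members are given; of other lists, up to 4 called genes with the largest change in WT or between genotypes. Members and lists were chosen with earlier results of these data known.

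The labels give each array its mouse, and 4 arrays share each, so the numbers pair them. Deviations from group means were hardly shared within a mouse: the mean correlation of deviations was 0.0106 (-0.0229 to 0.0462), with 0 of 36 pairs above 0.1. No 2 arrays were identical. The method was checked on simulated data. Alternatives were the mouse as a block, a variance trend, the methods' t-test, the compared arrays alone, centring, quantile normalization, other ways to choose probe sets, leaving out the arrays high in stromal markers, and leaving out each array.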

Additional observations from a re-analysis of the deposited data

Results flagged for a closer look

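These results are listed because the IL-4 change differed between WT and KO by limma's test of the difference itself. All are log2 differences, WT minus KO. On vehicle arrays, larger values in WT were seen for Slc2a1 (1.37), Hk3 (0.90), Pfkp (0.65), Pgam1 (0.71), Ldha (0.71), Gbe1 (0.97), Epas1 (6.57), Egln1 (0.95) and Ankrd37 (1.25). Smaller or more negative ones were seen for Pfkfb3 (-0.81), Aldoc (-2.49), Pygl (-1.42), Vegfa (-1.11) and Ddit4 (-2.34).

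On RSG arrays, larger values in WT were seen for Slc2a1 (1.59), Hk3 (0.76), Pfkp (1.19), Tpi1 (0.76), Pgam1 (0.64), Ldha (1.01), Epas1 (5.63) and Mxi1 (2.68), and lower ones for Pygl (-1.29) and Ddit4 (-1.66).

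Pfkfb3, Vegfa and Aldoc, called on vehicle arrays, were at -0.26, 0.11 and 0.03 on RSG arrays and were not called there. For Epas1 the size of the KO part depends on the probe set, since the second one did not fall in KO.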

How the results depend on the processing

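Of 1528 recomputed values for 88 called gene results, 1318 kept direction and call, 209 kept the direction and lost the call, and 1 reversed: Epas1 with IL-4 in KO under RSG was at 0.67 with the probe set of the highest mean ratio. Counts of called members stayed within 1.5 times of the main count in 190 of 223 cases. Where the mouse entered as a replicate block, the counts were 0 for RSG in KO without IL-4 and 0 for RSG in WT with IL-4, against 1 for each, and of the gene calls it ended those of Aldoc for RSG in WT with IL-4 and for IL-4 in KO under RSG, of Hk3 for RSG in KO without IL-4 and of Ddit4 by genotype under RSG, and no other.

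The other counts that moved were as follows. With the compared arrays alone, IL-4 in WT gave 8, IL-4 in KO 4, IL-4 in KO under RSG 1, the genotype difference under RSG 6, and both RSG comparisons with 1 call gave 0. The methods' t-test gave 1 for IL-4 in KO under RSG and 0 for both RSG comparisons. Quantile normalization gave 7 for the genotype difference, 1 for RSG in WT without IL-4 and 0 for RSG in WT with IL-4. A variance trend gave 0 for RSG in WT with IL-4. The probe set with the highest mean ratio gave 0 for RSG in KO without IL-4. Averaging probe sets gave 2 for RSG in KO without IL-4, 2 for RSG in WT with IL-4 and 1 for RSG in KO with IL-4. Without both arrays high in stromal markers, IL-4 in KO under RSG gave 8 and both RSG comparisons 0. Leaving out 1 array at a time, the counts ran from 13 to 17 for IL-4 in WT, 6 to 7 for IL-4 in KO, 10 to 14 for the genotype difference, 15 to 18 for KO against WT with IL-4, 4 to 8 for IL-4 in KO under RSG, and 0 to 1 for RSG in KO without IL-4, RSG in WT with IL-4 and RSG in WT without IL-4. For these moved counts the cause was not tested, beyond the smaller number of arrays where arrays were left out.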
